A study of Mus musculus with 4 samples.

Results

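The genes described here are 35 genes of sterol and fatty acid synthesis in RNA from sorted mouse lung smooth muscle cells. They were chosen by name, on values of the same comparison of *Tet3* mutant and control cells that is described below, as rows of the deposited table of normalized counts whose gene symbol was one of the 35. All 35 were found among the 21462 genes of the table, and all 35 averaged 10 or more across the libraries and entered the fit, as did 16659 genes in all. Because the list was chosen on this contrast, its fold changes are given as a description and no test was made of the list. By role it held 18 enzymes of cholesterol synthesis, 11 enzymes of fatty acid synthesis and 6 regulators or carriers of sterol.

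Cells make cholesterol from acetyl-CoA through mevalonate, isoprenoid units, squalene and lanosterol, and they make fatty acids from the same acetyl-CoA. Both routes are controlled by the sterol regulatory element-binding proteins (SREBPs), transcription factors that wait in the endoplasmic reticulum bound to the escort protein SCAP, are retained there by INSIG proteins when sterols are plentiful, and are released to the nucleus when sterols are scarce. In the lung, alveolar type 2 cells are known for high lipid synthesis, since they secrete the phospholipid film called surfactant, whereas smooth muscle cells use these routes mainly for their own membranes.

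The study asked how loss of TET3, an enzyme that oxidizes 5-methylcytosine in DNA, alters the transcripts of smooth muscle cells of the lung. RNA was sequenced from 2 control (WT) and 2 *Tet3*-inactivated (Mut) samples of C57BL/6 mice, named here control 1 and 2 and mutant 1 and 2. By the study's methods, the mutant mice carried floxed *Tet3* alleles, a tamoxifen-inducible Cre recombinase driven by the α-smooth muscle actin promoter and a tdTomato reporter, and tamoxifen was given to adult mice. Controls lacked the floxed alleles and carried the Cre recombinase, the tdTomato reporter or both, and which of these gave the RNA was not stated. Cells were depleted of CD45 and Ter-119 positive blood cells and then sorted as tdTomato positive and DAPI negative. The promoter can be active outside airway muscle, in vascular smooth muscle and other contractile cells, and the sort does not separate these. Sex and age of each animal are not given in the labels. Any p-value below sets a difference against a spread that was estimated, across genes, from these 4 libraries alone.

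Values are normalized counts, that is, read counts per gene that the authors scaled between libraries and rounded, with totals of 6.81 to 7.16 M per library. Reads counted in genes before that scaling were estimated at 6.32 to 7.56 M. These are a part of the reads sequenced, for which the study's methods give a higher average per library. All 9 smooth muscle markers were detected in every library, *Acta2* at 686 and 900 in the controls and at 1032 and 929 in the mutants. In control 1, control 2, mutant 1 and mutant 2, these 9 summed to 10288, 10553, 12028 and 10995. Other lung cell markers were present too. The 10 alveolar type 2 markers summed to 17366, 25984, 12067 and 15677, 5 endothelial markers to 9170, 7844, 9478 and 8560, and 6 T cell markers to 496, 117, 527 and 531. The lists differ in length, and the part of each cell type in the RNA was not tested. The targeted gene, *Tet3*, was at 1847 and 1926 in the controls and at 1534 and 1444 in the mutants, a log2 fold change of −0.34 (SE 0.1, limma adjusted p = 0.681) from counts per gene, which do not separate the floxed exons from the others. Control 2 stood apart from the other libraries. It lay more than 2-fold from all 3 others in 388 of 10888 genes with a mean of at least 100, against 10 to 73 genes for the others, and it alone held *Ddx3y*, a gene of the Y chromosome, at 774 with *Xist* at 2, whereas *Xist* was at 5214 to 6781 elsewhere. By *Xist* and *Ddx3y*, control 2 was male and the other libraries were female, so sex differed within the controls and between control 2 and both mutants. In these bulk samples, fewer cells of a type and less RNA per cell cannot be told apart.

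Promoter sequences are shown for 4 members, since SREBPs are known to act at short elements near the start of their targets, together with the factors NF-Y, which binds CCAAT, and Sp1, which binds GGGCGG. The windows were taken from RefSeq (GRCm38.p6), 250 bases before to 50 bases after each start, and at least 1 window was found for 28 of the 35 members. No window was found for *Fdps*, *Fdft1*, *Sqle*, *Stard4*, *Scd1*, *Scd2* and *Fads1*. *Hmgcs1* was shown because it was the sole member whose window held TCACNCCAC, a form of the sterol regulatory element, and *Lss*, *Tm7sf2* and *Fasn* because their fold changes were among the largest of members with a window. Each is written 5′ to 3′ on the gene's strand, and capitals mark TCACNCCAC and CCAAT on either strand, so that CCAAT on the other strand reads ATTGG and 2 overlapping matches in *Fasn* form 1 longer run. The windows are chr13:119690101-119690400 on the plus strand for *Hmgcs1*, chr10:76531355-76531654 on the plus strand for *Lss*, chr19:6067801-6068100 on the minus strand for *Tm7sf2* and chr11:120824498-120824797 on the minus strand for *Fasn*.
Hmgcs1: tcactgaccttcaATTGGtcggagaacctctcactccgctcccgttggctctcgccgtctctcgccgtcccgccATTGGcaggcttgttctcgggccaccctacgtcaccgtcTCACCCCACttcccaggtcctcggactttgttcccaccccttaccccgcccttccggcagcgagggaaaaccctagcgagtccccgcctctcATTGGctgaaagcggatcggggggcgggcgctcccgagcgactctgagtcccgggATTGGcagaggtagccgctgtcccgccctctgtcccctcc
Lss: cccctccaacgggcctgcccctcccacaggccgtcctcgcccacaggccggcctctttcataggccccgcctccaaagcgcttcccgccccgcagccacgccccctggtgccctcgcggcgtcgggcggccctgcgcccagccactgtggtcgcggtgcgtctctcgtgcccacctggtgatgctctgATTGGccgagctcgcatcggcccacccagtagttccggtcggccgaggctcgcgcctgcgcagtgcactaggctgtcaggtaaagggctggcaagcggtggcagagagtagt
Tm7sf2: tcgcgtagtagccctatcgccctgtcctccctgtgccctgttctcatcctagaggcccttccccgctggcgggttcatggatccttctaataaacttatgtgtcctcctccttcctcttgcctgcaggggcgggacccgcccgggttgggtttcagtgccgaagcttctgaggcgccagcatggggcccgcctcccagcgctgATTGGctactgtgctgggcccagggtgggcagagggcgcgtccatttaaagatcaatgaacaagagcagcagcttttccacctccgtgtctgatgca
Fasn: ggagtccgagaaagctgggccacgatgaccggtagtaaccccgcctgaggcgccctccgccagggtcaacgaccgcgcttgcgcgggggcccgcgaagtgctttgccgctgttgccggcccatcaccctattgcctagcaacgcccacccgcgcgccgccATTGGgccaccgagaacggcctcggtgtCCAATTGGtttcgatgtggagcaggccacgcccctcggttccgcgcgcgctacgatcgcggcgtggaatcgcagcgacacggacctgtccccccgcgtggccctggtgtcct
Between the RefSeq start and the gene start listed in the deposited table lay 28 bases for *Hmgcs1*, 17 bases for *Lss*, 523 bases for *Tm7sf2* and 0 bases for *Fasn*. The window of *Acaca* lay 65766 bases from the listed start and held none of the motifs searched, and it was not printed.

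The sterol element of *Hmgcs1* began at position -137 from its RefSeq start. TCACNCCAC was found in 1.24% of all 32851 mouse promoter windows and in 1 of the 38 windows of the members. CCAAT was found in 24 of the 38 windows (63.2%), against 37.4% of all windows and 36.8% of the windows of the genes tested. GGGCGG was found in 28 of the 38 (73.7%), against 35.7% of all windows and 59.2% of those of the genes tested. The E-box CACGTG, which SREBPs can also bind, was found in 7 of the 38 (18.4%), against 7.15% of all windows and 9.32% of those of the genes tested. A match is a run of letters and not a shown binding site, several windows belong to the same gene, and no binding of any factor was measured in these data.

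Most of the 35 genes had lower values in the *Tet3* mutant libraries than in the controls. The median log2 fold change of the 35 was −0.53, against −0.0069 over all genes tested, and single genes ranged from −1.57 for *Fdps* to 0.24 for *Ebp*. Of the 35, 33 had a log2 fold change below 0, as had 51% of all genes tested. Both mutants lay below both controls in 26 of the 35 and in 19.5% of all genes, and 14 of the 35 were more than 1.5-fold lower, as were 8.68% of all genes. These shares describe a list that was chosen on the same values, and nothing further was read from them. With p-values adjusted across the whole table, limma called 0 of the 35 and 0% of all genes, with a smallest adjusted p among the 35 of 0.681. Without adjustment, 12 of the 35 had a p under 0.05 and were lower in the mutants, as were 2.85% of all genes, and none of the 35 was higher at that level. Summed over the 35, normalized counts made up 0.41% and 0.579% of the control libraries and 0.317% and 0.372% of the mutant libraries.

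**Figure D1:**
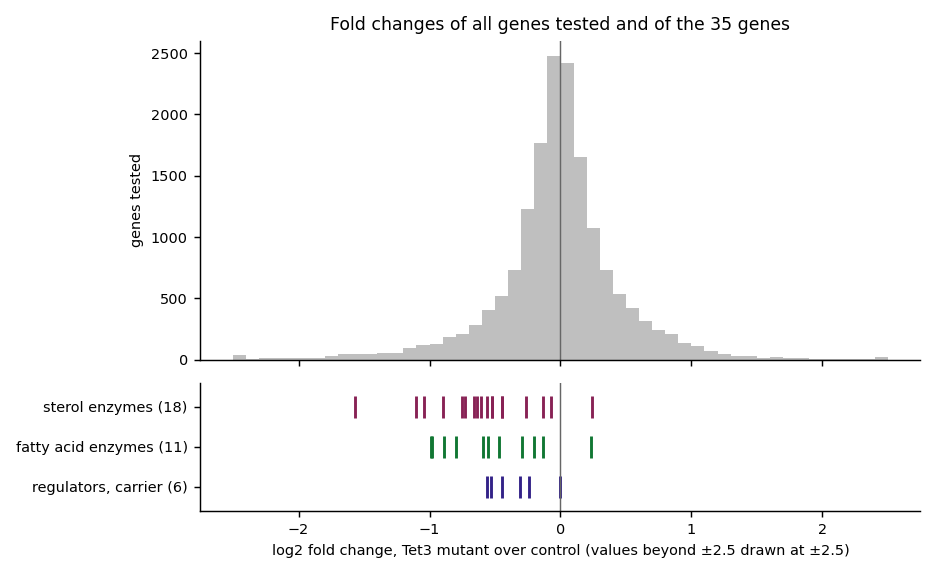
Histogram of the log2 fold change (*Tet3* mutant over control) of the 16659 genes tested, above the same value for each of the 35 genes, drawn as ticks in 3 groups. The 35 genes have a median of −0.53, to the left of the peak of all genes near 0, and 33 ticks lie below 0.

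Enzymes of the mevalonate steps, from acetyl-CoA to farnesyl diphosphate, had log2 fold changes with a median of −0.66, all 7 of them below 0. In the order control 1, control 2, mutant 1 and mutant 2, which is kept below, *Fdps*, the farnesyl diphosphate synthase, was at 41, 105, 20 and 23. Its values were low, both mutants lay below both controls, and control 2 held more than the other 3. The log2 fold change was −1.57 (SE 0.52), a mutant-to-control ratio of 0.336. *Hmgcs1*, the cytosolic HMG-CoA synthase whose promoter is shown above, was at 818, 1055, 664 and 700, a log2 fold change of −0.45 (SE 0.155). *Idi1*, which isomerizes isopentenyl diphosphate, was at 108, 179, 80 and 85, a log2 fold change of −0.75 (SE 0.305). *Mvk*, the mevalonate kinase, was at 238, 275, 204 and 222, a log2 fold change of −0.26 (SE 0.163). In all of these the 2 groups did not overlap and the mutant libraries lay close to each other.

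In the other 3 genes of these steps, control 1 lay between the mutants and control 2 stood above the rest. *Acat2*, the cytosolic thiolase that joins 2 acetyl-CoA, was at 106, 221, 62 and 108, with a log2 fold change of −0.90 and, without control 2, of −0.37. *Pmvk*, the phosphomevalonate kinase, was at 160, 450, 152 and 204, with a log2 fold change of −0.61 that became 0.14 without control 2. *Mvd*, which decarboxylates mevalonate diphosphate, was at 102, 216, 75 and 117, with −0.66 and, without control 2, −0.12. The difference between the 2 controls exceeded that between the groups in each of the 3. Part of the exon sequence of some of these genes occurs elsewhere: 33.9% of 75-base windows of *Acat2*, mostly in *Acat3*, 23.6% of *Idi1* and 23.5% of *Fdps*, and by the study's methods reads that aligned to several places or overlapped several genes were left out, so that such stretches are counted in part or not at all.

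The 3 genes that make squalene and close it to lanosterol were lower in both mutants than in both controls, with a median log2 fold change of −0.64. *Sqle*, the squalene epoxidase, was at 452, 605, 307 and 367, a log2 fold change of −0.64 (SE 0.194). *Lss*, the lanosterol synthase, was at 490, 935, 283 and 382, a log2 fold change of −1.04 (SE 0.341) and a ratio of 0.486. *Fdft1*, the squalene synthase, was at 403, 547, 305 and 331, a log2 fold change of −0.56 (SE 0.186). Mutant 1 was the lowest and control 2 the highest in each, and without control 2 the 3 values were −0.43, −0.57 and −0.34. *Fdft1* shares 774 exon bases with *Ctsb* on the opposite strand, and it was not stated whether strand was used in counting.

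The 8 genes from lanosterol to cholesterol were less uniform, with a median log2 fold change of −0.49 and 7 below 0. *Dhcr7*, which makes the last reduction of the Kandutsch-Russell route, was at 229, 285, 145 and 163. Its mutant libraries lay well below its controls, and the controls were close to each other. The log2 fold change of −0.73 (SE 0.19) had the smallest unadjusted p of the 35 in limma. *Tm7sf2*, a sterol C14 reductase, was at 61, 129, 35 and 48, a log2 fold change of −1.10 (SE 0.443). *Cyp51*, the lanosterol demethylase, was at 460, 592, 326 and 447. Here mutant 2 lay just below control 1, and the log2 fold change was −0.45 (SE 0.216). *Msmo1*, the C4 methylsterol oxidase, was at 492, 650, 366 and 423, and *Nsdhl*, which acts after it, was at 186, 292, 145 and 181. In both of these the groups did not overlap and the log2 fold change was −0.52, although mutant 2 and control 1 differed by 5 counts in *Nsdhl*.

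The remaining 3 late genes were not lower in both mutants. *Ebp*, the sterol Δ8-Δ7 isomerase, was at 248, 242, 287 and 291, and it was the sole member with both mutants above both controls, at a log2 fold change of 0.24 (SE 0.137). *Sc5d*, the lathosterol oxidase, was at 851, 668, 712 and 720, with control 1 highest and control 2 lowest. *Hsd17b7*, a 3-ketosterol reductase, was at 181, 259, 191 and 205, so that both mutants lay between the controls. Log2 fold changes of −0.074 (SE 0.15) for *Sc5d* and −0.13 (SE 0.224) for *Hsd17b7* were smaller than the difference between the controls.

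**Figure D2:**
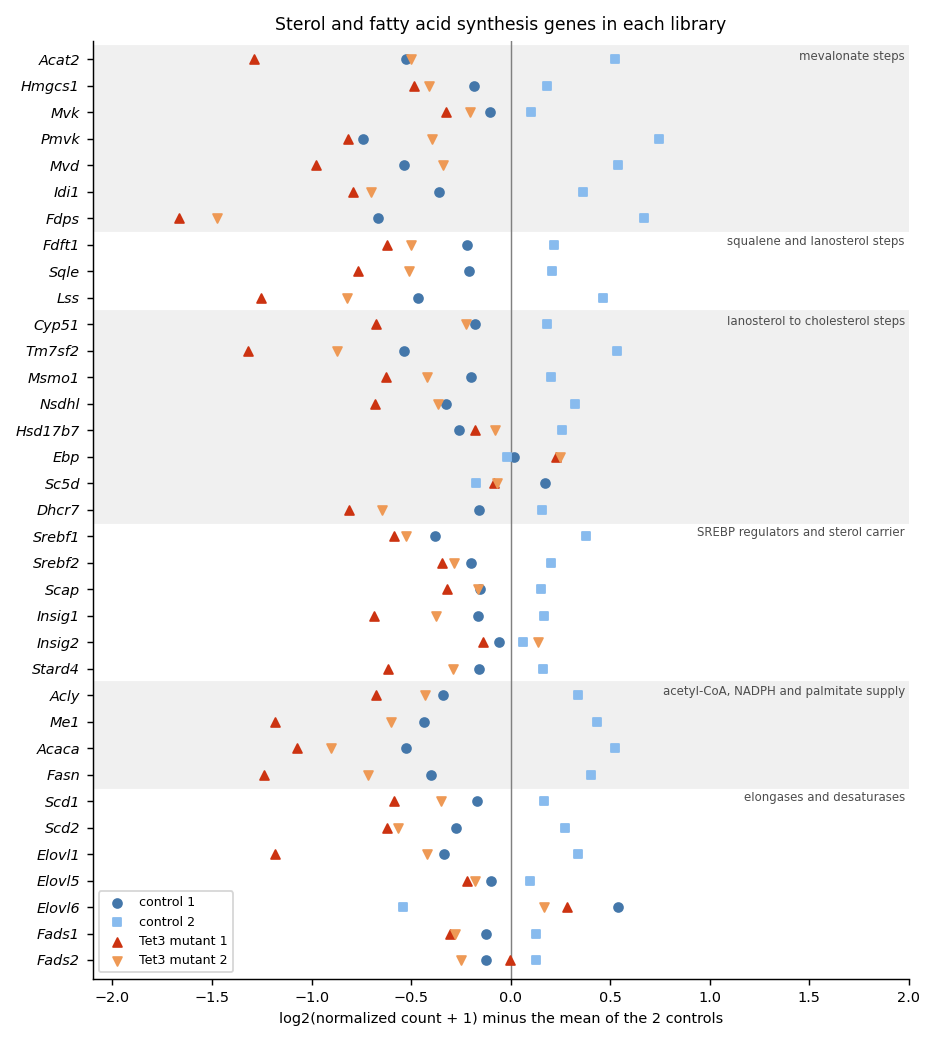
Log2(normalized count + 1) of each of the 35 genes minus the mean of the 2 controls, with 1 marker per library and genes grouped by role. Control 2 is the right-most marker in 31 genes and mutant 1 the left-most in 30.

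The 6 regulators and carriers had a median log2 fold change of −0.38, against −0.58 for the 18 sterol enzymes and −0.55 for the 11 fatty acid enzymes, and none of the 6 was more than 1.5-fold lower. *Srebf1*, which encodes the SREBP mainly tied to fatty acid genes, was at 1209, 2046, 1046 and 1093. Control 2 held far more than the other 3 libraries, and the log2 fold change of −0.56 (SE 0.257) became −0.18 without it. *Srebf2*, which encodes the SREBP mainly tied to cholesterol genes, was at 1938, 2561, 1753 and 1830, a log2 fold change of −0.31 (SE 0.158). *Scap*, the escort protein, was at 732, 904, 652 and 725, a log2 fold change of −0.24 (SE 0.148). In *Srebf2* and *Scap*, too, the groups did not overlap, but control 1 was closer to the mutants than to control 2.

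The paralogs *Insig1* and *Insig2* encode the proteins that retain SREBP in the endoplasmic reticulum, and *Insig1* is itself an SREBP target. *Insig1* was at 675, 849, 470 and 583, a log2 fold change of −0.53 (SE 0.177). *Insig2* was at 301, 327, 285 and 345, with mutants on both sides of the controls and a log2 fold change of −0.00073 (SE 0.159). *Stard4*, a cytosolic carrier of sterol, was at 519, 649, 378 and 475, a log2 fold change of −0.45 (SE 0.182), with both mutants below both controls. Whether *Insig1* and *Insig2* differed from each other in their change was not tested.

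The 4 genes that supply acetyl-CoA, NADPH and palmitate had the lowest median of the roles, at −0.94, and in all 4 the libraries stood in the order mutant 1, mutant 2, control 1, control 2. *Fasn*, the fatty acid synthase, was at 4514, 7887, 2524 and 3636 and was the highest of the 35 in normalized counts in every library but mutant 1, where *Scd1* was higher. Its log2 fold change was −0.98 (SE 0.317), a ratio of 0.508, and −0.58 without control 2. *Acaca*, the acetyl-CoA carboxylase that makes malonyl-CoA, was at 1005, 2077, 685 and 772, a log2 fold change of −0.99 (SE 0.347). *Me1*, the malic enzyme that yields cytosolic NADPH, was at 415, 758, 246 and 370, a log2 fold change of −0.89 (SE 0.349). *Acly*, which splits citrate to acetyl-CoA, was at 1822, 2919, 1443 and 1713, a log2 fold change of −0.55 (SE 0.246). Control 2 exceeded control 1 in each, and in *Acaca* and *Acly* by more than the groups differed. Of 75-base exon windows, 26.8% of *Acaca* and 20% of *Me1* also occur in other genes.

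Elongases and desaturases had a median log2 fold change of −0.29, with 6 of 7 below 0. *Scd1* and *Scd2*, the stearoyl-CoA desaturases that make oleate, were both lower in the mutants without overlap. *Scd1* was at 3587, 4537, 2685 and 3161, a log2 fold change of −0.47 (SE 0.161). *Scd2* was at 2164, 3163, 1701 and 1764, a log2 fold change of −0.59 (SE 0.196). *Elovl1*, an elongase of very long saturated chains, was at 842, 1343, 468 and 794, a log2 fold change of −0.80 (SE 0.334), with mutant 1 far below mutant 2. *Elovl5*, an elongase of polyunsaturated chains, was at 872, 1001, 801 and 826, and *Fads1*, the Δ5 desaturase, was at 1400, 1667, 1237 and 1257. Their log2 fold changes of −0.20 (SE 0.118) and −0.29 (SE 0.124) were small, without overlap of the groups.

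*Fads2*, the Δ6 desaturase, was at 861, 1024, 937 and 791, with mutant 1 between the controls, and *Elovl6*, which extends palmitate to stearate, was at 202, 95, 169 and 156. *Elovl6* was among the 4 members in which control 2 was not the highest library, and in it control 2 was the lowest. Its log2 fold change of 0.23 (SE 0.383) became −0.31 without that library.

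Levels were compared between genes per kilobase of exon, from the union of exons in GENCODE M21. *Scd1* had the highest level, at 733 and 927 normalized counts per kilobase in the controls and 549 and 646 in the mutants. *Fasn* followed at 412 and 720 in the controls and *Scd2* at 396 and 579, so that these neighbours overlapped in the controls. *Acly* at 345 and 553 and *Elovl1* at 309 and 493 overlapped with them too. The lowest control levels were those of *Fdps*, at 9.74 and 25, *Tm7sf2*, at 13.9 and 29.3, and *Elovl6*, at 31.4 and 14.8, and these also overlapped. On the same strand, *Fdps* shares 26.7% of its exon bases with *Gm43738* and *Tm7sf2* 12.1% with *Vps51*. Reads that overlapped several genes were left out, so the levels of *Fdps* and *Tm7sf2* may be too low. Among the sterol enzymes, *Hmgcs1* had the highest control mean, at 204, followed by *Pmvk* at 178 and *Sc5d* at 156. In control 1 and control 2, *Hmgcs1* was at 178 and 230, *Pmvk* at 93.4 and 263 and *Sc5d* at 175 and 137. Their order thus differed between the controls, with *Pmvk* high in control 2 alone. The fatty acid enzymes thus made up most of the upper end and the sterol enzymes most of the lower end, and *Fasn* with *Scd1* held 23.9% to 29.9% of the summed counts of the 35.

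**Figure D3:**
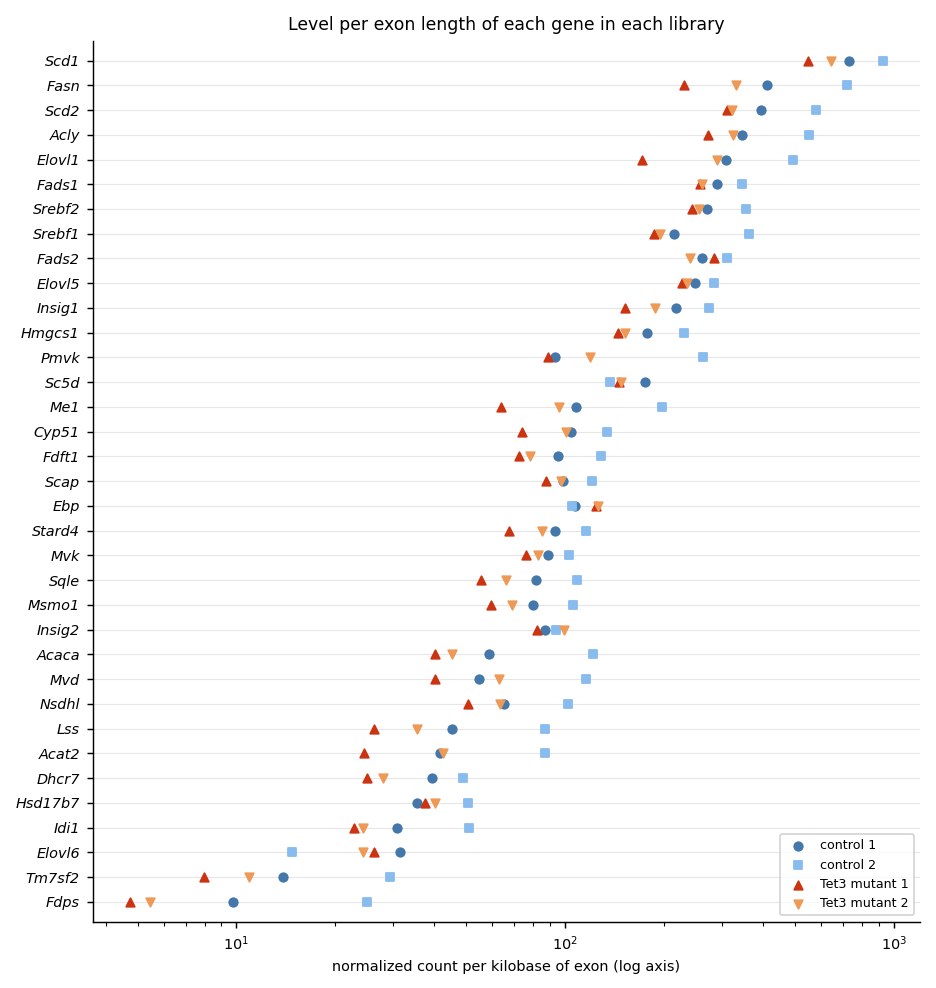
Normalized count per kilobase of exon of each of the 35 genes, with 1 marker per library on a logarithmic axis and genes ordered by the control mean. Control means run from 17.3 for *Fdps* to 830 for *Scd1*.

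Control 2 carried much of the size of these differences. It was the highest of the 4 libraries in 31 of the 35 genes and in 33.2% of all genes tested, and it exceeded control 1 in 32 of the 35 and in 49.8% of all genes. The median difference between control 2 and control 1 was 0.42 on the log2 scale, against 0.19 between mutant 2 and mutant 1. In 14 of the 35 the controls differed from each other by more than the groups did, as in 62.6% of all genes. The whole order mutant 1, mutant 2, control 1, control 2 was seen in 26 of the 35 and in 7.87% of all genes.

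Without control 2 the direction stayed below 0 in most of the genes and the size was smaller. The median log2 fold change of the 35 was then −0.29, with 31 below 0, as were 52.8% of all genes. Without control 1 the median was −0.78, without mutant 1 it was −0.39 and without mutant 2 it was −0.63. The log2 fold change was below 0 whichever library was left out in 29 of the 35 and in 28.2% of all genes. By role, the median without control 2 was −0.26 for the mevalonate steps, −0.43 for squalene and lanosterol, −0.26 from lanosterol to cholesterol, −0.15 for regulators and carrier, −0.46 for acetyl-CoA, NADPH and palmitate supply and −0.30 for elongases and desaturases. The 6 genes not below 0 in every such fit were *Pmvk*, *Hsd17b7*, *Ebp*, *Sc5d*, *Insig2* and *Elovl6*. Without control 2, the lowest log2 fold changes were those of *Fdps* (−0.90), *Fasn* (−0.58), *Lss* (−0.57), *Dhcr7* (−0.57) and *Tm7sf2* (−0.56).

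**Figure D4:**
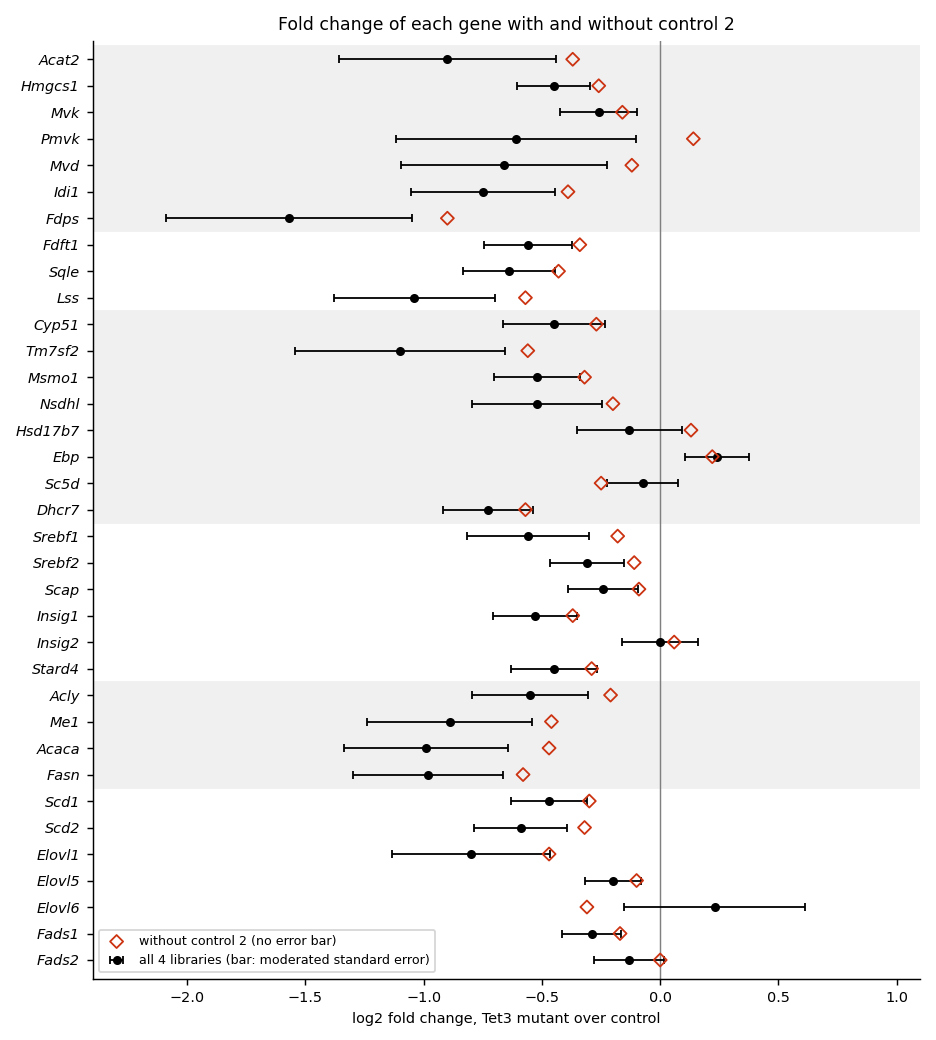
Log2 fold change of each of the 35 genes, *Tet3* mutant over control, from all 4 libraries (filled circles, bars are moderated standard errors from limma) and without control 2 (open diamonds), with role groups shaded in turn. Most diamonds lie to the right of their circles, and the median goes from −0.53 to −0.29.

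Genes around the pathway that are not among the 35 were followed as 6 lists, each without a gene past the adjusted threshold in limma. Of 13 other genes of sterol synthesis and uptake, 10 were below 0, as were 51% of all genes tested. Of the same 13, 5 had an unadjusted limma p under 0.05 and lower values, as had 2.85% of all genes tested. The median log2 fold change of the 13 was −0.45, and it was −0.73 without control 1, −0.22 without control 2 and −0.29 without mutant 1. *Npc1*, which exports cholesterol from lysosomes, was at 1596, 2511, 1248 and 1300. *Soat1*, which esterifies cholesterol for storage, was at 2050, 2973, 1267 and 1671, a log2 fold change of −0.76 (SE 0.23). Both had the same order of libraries as most of the 35.

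Genes that move SREBP through the cell or degrade sterol enzymes stood near 0 as a list. Their median log2 fold change was −0.05, with 9 of 15 below 0 and none at an unadjusted p under 0.05 in the lower direction. Among them, *Sec24d*, a coat protein of vesicles leaving the endoplasmic reticulum, was at 918, 779, 1074 and 1006, *Rnf145*, a sterol-regulated ubiquitin ligase, at 801, 919, 697 and 723, and *Sec24a* at 689, 580, 600 and 504. Genes of the liver X receptor (LXR) and of cholesterol efflux had a median of −0.0062, with 5 of 9 below 0. *Nr1h3*, which encodes LXRα, was at 525, 432, 555 and 549, *Lpcat3* at 336, 396, 281 and 284, and *Apoc1* at 74, 127, 24 and 81. The direction of both medians depended on which library was left out.

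Of 23 other genes of fatty acid synthesis and activation, 18 were below 0, with a median of −0.22 that was −0.40 without control 1 and −0.037 without control 2. *Thrsp*, a lipogenic protein, was at 51, 170, 21 and 37, a log2 fold change of −1.71 (SE 0.652), *Acsl4*, an acyl-CoA synthetase, at 1641, 2336, 1074 and 1423, and *Elovl7* at 92, 159, 50 and 77. Triglyceride and phospholipid synthesis had a median of −0.25, with 10 of 12 below 0, and it was −0.086 without mutant 1, −0.56 without mutant 2 and −0.42 without control 1. There, *Gpam*, the mitochondrial glycerol-phosphate acyltransferase, was at 2053, 2586, 1533 and 1717, *Lpcat1*, known for making surfactant phospholipid, at 1919, 3041, 1143 and 1751, and *Lpin2* at 1188, 2220, 937 and 989. Fatty acid oxidation had a median of 0.046, with 4 of 12 below 0, and it was −0.048 without mutant 2, 0.11 without mutant 1 and 0.0068 without control 1. *Ppara*, which encodes a nuclear receptor that drives fatty acid oxidation, was at 76, 122, 64 and 63, lower in both mutants than in both controls.

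Markers of alveolar type 2 cells moved with the 35 genes. All 10 markers had a log2 fold change below 0, with a median of −0.60, as had 51% of all genes tested a value below 0. All 10 were highest in control 2, as were 33.2% of all genes. Of the 10, 9 stood in the order mutant 1, mutant 2, control 1, control 2, as did 7.87% of all genes. *Sftpc*, which encodes surfactant protein C, did not, at 825, 1254, 904 and 780. *Abca3*, the lipid transporter of surfactant granules, was at 3360, 5981, 2080 and 2929, and *Etv5*, a transcription factor of these cells, at 966, 1728, 486 and 766. Relative to the control mean, the median of the 10 markers was −0.28, 0.28, −0.87 and −0.39 in the 4 libraries on the log2 scale, and that of the 35 genes was −0.21, 0.21, −0.63 and −0.39. Their summed normalized counts were 17366, 25984, 12067 and 15677, none was at 0 in any library, and their median was −0.33 without control 2 and −0.39 without mutant 1. The part of alveolar type 2 RNA in the values of the 35 genes was not tested.

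The other marker lists differed in direction from each other. Alveolar type 1 markers had a median log2 fold change of −0.49, with 4 of 7 below 0, and of −0.0038 without control 2. Relative to the control mean, their median was −0.29, 0.29, −0.62 and −0.29 in the 4 libraries. It was lowest in mutant 1 and highest in control 2, but control 1 did not lie above mutant 2 as in the 35 genes. Of the 7 markers, 4 were highest in control 2. Only 1 of the 7 stood in the order mutant 1, mutant 2, control 1, control 2. *Pdpn*, at 339, 245, 426 and 404, and *Hopx*, at 226, 215, 245 and 248, were lowest in control 2. Smooth muscle markers had a median of 0.43 with 8 of 9 above 0, from 0.20 without control 1 to 0.64 without control 2, and their sums were 10288, 10553, 12028 and 10995. Ciliated cell markers had a median of 0.81, all 5 above 0, with sums of 1360, 1394, 2838 and 1918. Both lists stayed above 0 whichever library was left out.

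Macrophage markers had a median of 0.42, all 10 above 0, with sums of 6857, 5509, 7423 and 8616, and a median of 0.28 without control 2. T cell markers were low in control 2, with sums of 496, 117, 527 and 531, and their median of 1.21 was 0.16 without it. Of the adipocyte markers, 2 were tested, *Cidec* at 96, 9, 68 and 141 and *Lipe* at 512, 383, 439 and 629, with a median of 0.96 that was 0.033 without control 2, and *Adipoq*, the adipocyte hormone, was at 1, 0, 0 and 4. These 3 lists were thus lowest in control 2.

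Leaving out control 2 turned the sign of 3 medians, from 0.39 to −0.23 for club cell markers, from 0.14 to −0.11 for lipofibroblast and alveolar fibroblast markers and from 0.082 to −0.027 for endothelial markers. Mesothelial markers, with sums of 244, 63, 72 and 85, had a median of −0.83 that was 0.37 without control 1 and −1.92 without control 2. Schwann cell markers had a median of −0.13, from −0.22 without mutant 1 to −0.0028 without control 1. Their part in the values of the 35 genes was not tested either.

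**Figure D5:**
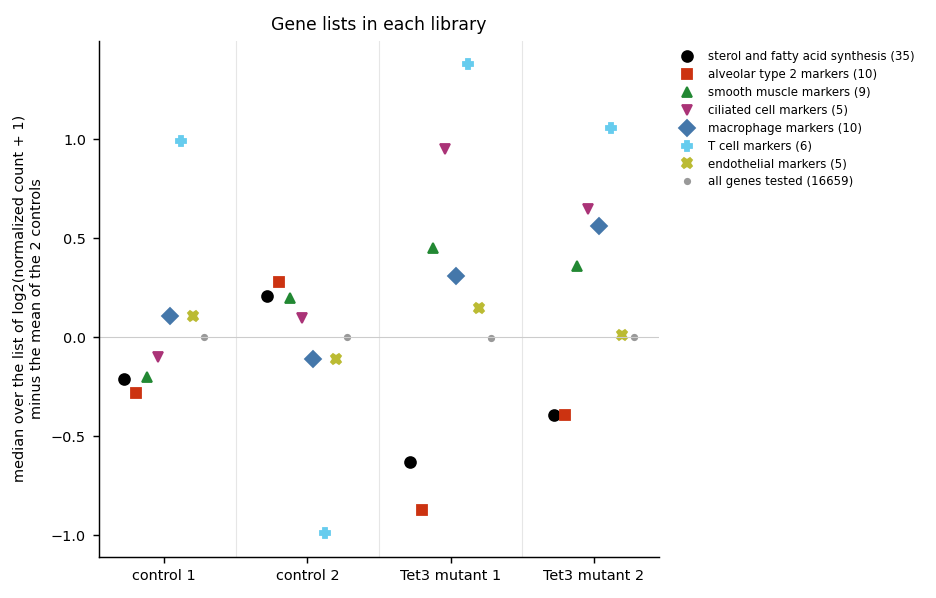
Median over each gene list of log2(normalized count + 1) minus the mean of the 2 controls, with 1 marker per list in each of the 4 libraries. The 35 synthesis genes and the alveolar type 2 markers lie side by side below 0 in both mutants and above 0 in control 2, whereas smooth muscle markers lie above 0 in both mutants, at 0.45 and 0.36.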

How the data were processed

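Total RNA of sorted lung smooth muscle cells was depleted of ribosomal RNA and made into stranded single-end libraries. Per the submitters' processing notes and the study's methods, Trimmomatic 0.36 trimmed the reads, STAR 2.6.0c aligned them to mm10 (GRCm38) and they were counted with featureCounts (Subread 1.6.0). The deposited values are a score: counts that the authors scaled with DESeq2 and rounded to whole numbers, so they are not raw counts, and whether strand was used was not given in the sources used here. Groups follow the genotype label, 2 samples each, and no column of another comparison was used.

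Genes with a mean of at least 10 were compared on log2(value + 1) with limma 3.58.1 in R 4.3.3 (lmFit, eBayes with a trend), and p-values of all 16659 genes were adjusted by Benjamini-Hochberg, with a threshold of 0.05. Fold changes on that scale understate those of low genes. A single value could not reach p = 0.05 in an exact permutation test, whose smallest two-sided p for 2 against 2 is 0.333. The authors' scaling factors, estimated here by likelihood from the frequencies of low values, were 0.961 and 1.05 in the controls and 1.09 and 0.901 in the mutants, and raw counts could not be recovered where they are below 1. Depth limits single genes through counting error only in part, as reads carried no molecular identifiers and may be copies of 1 molecule.

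The 35 genes, the other gene lists and the markers were chosen with earlier results of these data known. All 35 genes are named, and of each other pathway list the 3 genes of smallest unadjusted p with a mean of at least 50, except that some of these are not reported here. Exon lengths and 75-base windows came from GENCODE M21, in which 99.8% of identifiers were found. Scripts were tested on simulated data. Alternatives were equal library totals, factors by the trimmed mean of M values (TMM), pseudocounts of 0.5 and 8, minimum means of 1 and 50, no trend, a replicate block and each library left out. *Idi2*, *Elovl2*, *Elovl3*, *Lep*, *Retn* and *Sox10* were not analysed here.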

Additional observations from a re-analysis of the deposited data

How the results depend on the processing

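Under the 12 alternatives, the median log2 fold change of the 35 genes stayed below 0, from −0.78 without control 1 to −0.29 without control 2, against −0.53 in the main fit. No gene passed the adjusted threshold under any alternative except without the trend in limma, where 1 gene, *Hal*, did. At an unadjusted p under 0.05, limma listed 1112 genes in either direction, of which 474 were lower in the mutants. Of the 35 genes, 12 were lower at that level. Without the trend, 3 of the 35 and 416 of all genes tested were lower at that level. With 1 library left out, the lone library of a group is assumed to vary like the others, and no such counts are given. With equal library totals the median of all genes was 0.041, that of the 35 −0.48, and 32 of them lay below 0.

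With the replicate number as a block (the replicate block), 0 genes passed, the smallest limma adjusted p being 0.149. Before adjustment, 1637 genes had a limma p under 0.05 in either direction. Of all 16659 genes tested, 937 were lower in the mutants at that level, against 474 without the block. Of the 35 genes, 23 were lower at that level, with a median of −0.53. The numbers give only 2 pairs, whose deviations correlated at 0.134 across genes, which are not independent replicates, and the labels do not say that a number marks a shared litter or day, so the pairing is not shown. Control 2 stood apart from the rest and alone held *Ddx3y*. With 2 libraries per group, differences of the size seen between the controls cannot be told apart from differences between single animals or between the sexes.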
